A study of Mus musculus with 18 samples.

Results

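The 10 genes described here are the immediate-early FOS, JUN and EGR genes Fos, Fosb, Fosl1, Fosl2, Jun, Junb, Jund, Egr1 and Egr2, together with Ier2. They were chosen by symbol from the 22019 genes of a table of normalized messenger RNA signal, and all 10 were among the 16021 genes tested. The cells were NIH 3T3, a mouse embryonic fibroblast line, transduced with a retroviral construct that doxycycline switches on. One construct was SUN1L, the lumenal domain of the nuclear envelope protein SUN1, which displaces nesprins and so uncouples the nucleus from the cytoskeleton. The other was the control KDEL, a GFP held in the endoplasmic reticulum. All cells received 1 μg/ml doxycycline and were lysed 48 hr after seeding on fibronectin-coated polyacrylamide gels of 1 kPa (soft) or 308 kPa (stiff). On the stiff gel KDEL cells were also kept for these 48 hr with 25 μM Y27 or 10 μM blebbistatin, both used to inhibit myosin activity.

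The 18 libraries are called by their serial numbers. KDEL cells on 1 kPa were libraries 4, 16 and 28, and KDEL cells on 308 kPa were libraries 8, 20 and 32. The Y27 group was libraries 12, 24 and 36, and the blebbistatin group libraries 10 and 22. SUN1L cells were libraries 3, 15 and 27 on 1 kPa and libraries 7, 19 and 31 on 308 kPa. Library 34 has labels that conflict: its source name gives an empty vector with Y27, and its characteristics give an empty vector with blebbistatin, so it entered no comparison and its values are given apart. The order of the groups repeats along the serial numbers, apart from library 34. The libraries were therefore divided into 3 runs, numbers 3 to 12, numbers 15 to 24 and numbers 27 to 36. Gaps in the numbering do not mark these runs, since equal gaps occur within them. Every group has 1 library per run, except that the last run holds no blebbistatin library. The methods call the replicates of a condition biological ones, and what a run stands for is not given in the sources used here.

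Immediate-early genes are transcribed within minutes of a stimulus such as serum, growth factors or stress, without new protein synthesis. Their induction runs through MAP kinases to transcription factors that wait on their promoters, among them SRF at the CArG box and CREB at cyclic AMP elements. FOS proteins (Fos, Fosb, Fosl1, Fosl2) pair with JUN proteins (Jun, Junb, Jund) to form AP-1, which binds the sequence TGACTCA. EGR proteins are zinc finger factors that bind GC-rich sites such as GCGTGGGCG, and Ier2 is a nuclear protein induced along with them. Most of these messages are short-lived.

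Promoter windows from RefSeq (GRCm38.p6), 250 bases upstream of a start, were matched for 7 of the 10 genes: Fos, Fosb, Fosl2, Jun, Junb, Jund and Egr2. The windows of Fos, Fosb and Jun are printed because Fos and Fosb had the largest within-group SD of log2 signal of the 10 genes and Jun varied apart from them, as described further on. Letters are 5′ to 3′ on the strand of the gene, and capitals mark the motifs found. The Fos window is chr12:85473640-85473889 (plus strand), that of Fosb chr7:19310046-19310295 (minus strand) and that of Jun chr4:95052223-95052472 (minus strand).
Fos: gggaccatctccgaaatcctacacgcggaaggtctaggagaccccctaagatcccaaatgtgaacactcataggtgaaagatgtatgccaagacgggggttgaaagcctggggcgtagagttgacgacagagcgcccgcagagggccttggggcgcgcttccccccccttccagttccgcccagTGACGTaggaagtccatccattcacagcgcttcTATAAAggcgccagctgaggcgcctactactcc
Fosb: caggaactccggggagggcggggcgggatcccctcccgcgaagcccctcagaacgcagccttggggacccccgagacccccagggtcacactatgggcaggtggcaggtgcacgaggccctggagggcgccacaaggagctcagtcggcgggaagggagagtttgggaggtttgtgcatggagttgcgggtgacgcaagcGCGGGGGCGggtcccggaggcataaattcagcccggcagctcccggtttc
Jun: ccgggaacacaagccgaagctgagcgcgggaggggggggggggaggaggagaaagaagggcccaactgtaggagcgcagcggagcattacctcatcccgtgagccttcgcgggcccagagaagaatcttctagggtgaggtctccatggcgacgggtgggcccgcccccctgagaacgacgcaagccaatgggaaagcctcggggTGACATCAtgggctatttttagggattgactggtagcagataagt

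The motifs searched, on both strands, were the CArG box, TGACGTCA, TGACGT (which lies within TGACGTCA), TGACTCA, TGACATCA, GCGGGGGCG, GCGTGGGCG and TATAAA. The Fos window held TGACGT, the core of a cyclic AMP element, 66 to 61 bases before the start and TATAAA 33 to 28 bases before it. TGACGT is found in 6.47% and TATAAA in 12.4% of 32851 promoter windows of the same length. Jun held TGACATCA, a variant AP-1 site, 45 to 38 bases before its start (2.93% of windows). Fosb held GCGGGGGCG 50 to 42 bases before its start, and Fosl2 held it 79 to 71 bases before (2.57% of windows). Of the remaining genes, Egr2 held a CArG box in 4 of its 5 windows and TGACGT in 3 of them, and the CArG box occurs in 1.47% of all windows. The 3 windows with TGACGT overlap and hold the same TGACGT and the same CArG box, so these are not separate sites. No window of these 7 genes held TGACTCA, TGACGTCA or GCGTGGGCG, and those of Junb and Jund held none of the motifs searched.

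The files rested on 12670000 to 19460000 read pairs per library, estimated from the size of the smallest steps in the values. The signal of Sun1, the gene from which SUN1L is made, was 38452 to 82617 in the 6 SUN1L libraries and 2785 to 3799 in the others. Fibroblast markers were abundant (Col1a2 92136 to 231471), whereas Krt18 and Myod1 stood at the lowest value of 1 in every library. Of the other epithelial and muscle markers, Cdh1 (88.0 to 311) and Des (181 to 465) were detected in all libraries at low levels. Epcam, Krt8, Myog and Ckm reached at most 2.49, 7.84, 2.16 and 3.26, with 1 as their lowest value. Of the leukocyte and endothelial markers, Cd14 (80.5 to 401), Cd68 (58.7 to 304), Cdh5 (7.00 to 234) and Pecam1 (7.87 to 70.3) were detected in all libraries. Ptprc, Itgam and Kdr reached at most 11.7, 10.8 and 11.9, with 1 as their lowest value. Libraries 3, 7 and 8 stood apart: the mean log2 signal of 24 G2/M genes was 8.45, 8.71 and 9.03 in them and 11.33 to 12.11 in the other 15. As these are bulk samples, a lower signal from fewer cells of a kind cannot be told apart from less RNA per cell.

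None of the 10 genes passed the test in any of 10 comparisons of rigidity, inhibitor or construct (limma on log2(signal + 1), with a call set at 2-fold and a Benjamini-Hochberg adjusted p under 0.05). Of all genes tested, 0% passed for rigidity, the inhibitors and the interaction, and 0.0624% to 0.181% between the constructs. The spread between libraries of the same group was wide for most of them. Fos ranged from 229 to 5834 over the 18 libraries, a 25.5-fold range, Egr2 from 98.0 to 1150 (11.7-fold) and Fosb from 177 to 1850 (10.5-fold). The range was 5.36-fold for Egr1, 4.84-fold for Ier2, 3.63-fold for Junb and 3.42-fold for Jun. It was narrowest for Fosl1 (2.64-fold), Jund (2.09-fold) and Fosl2 (1.98-fold). Between libraries of the same group the range was smaller, at most 10.1-fold for Fos, 8.47-fold for Fosb, 6.25-fold for Egr2 and 2.21-fold for Jun.

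**Figure D1:**
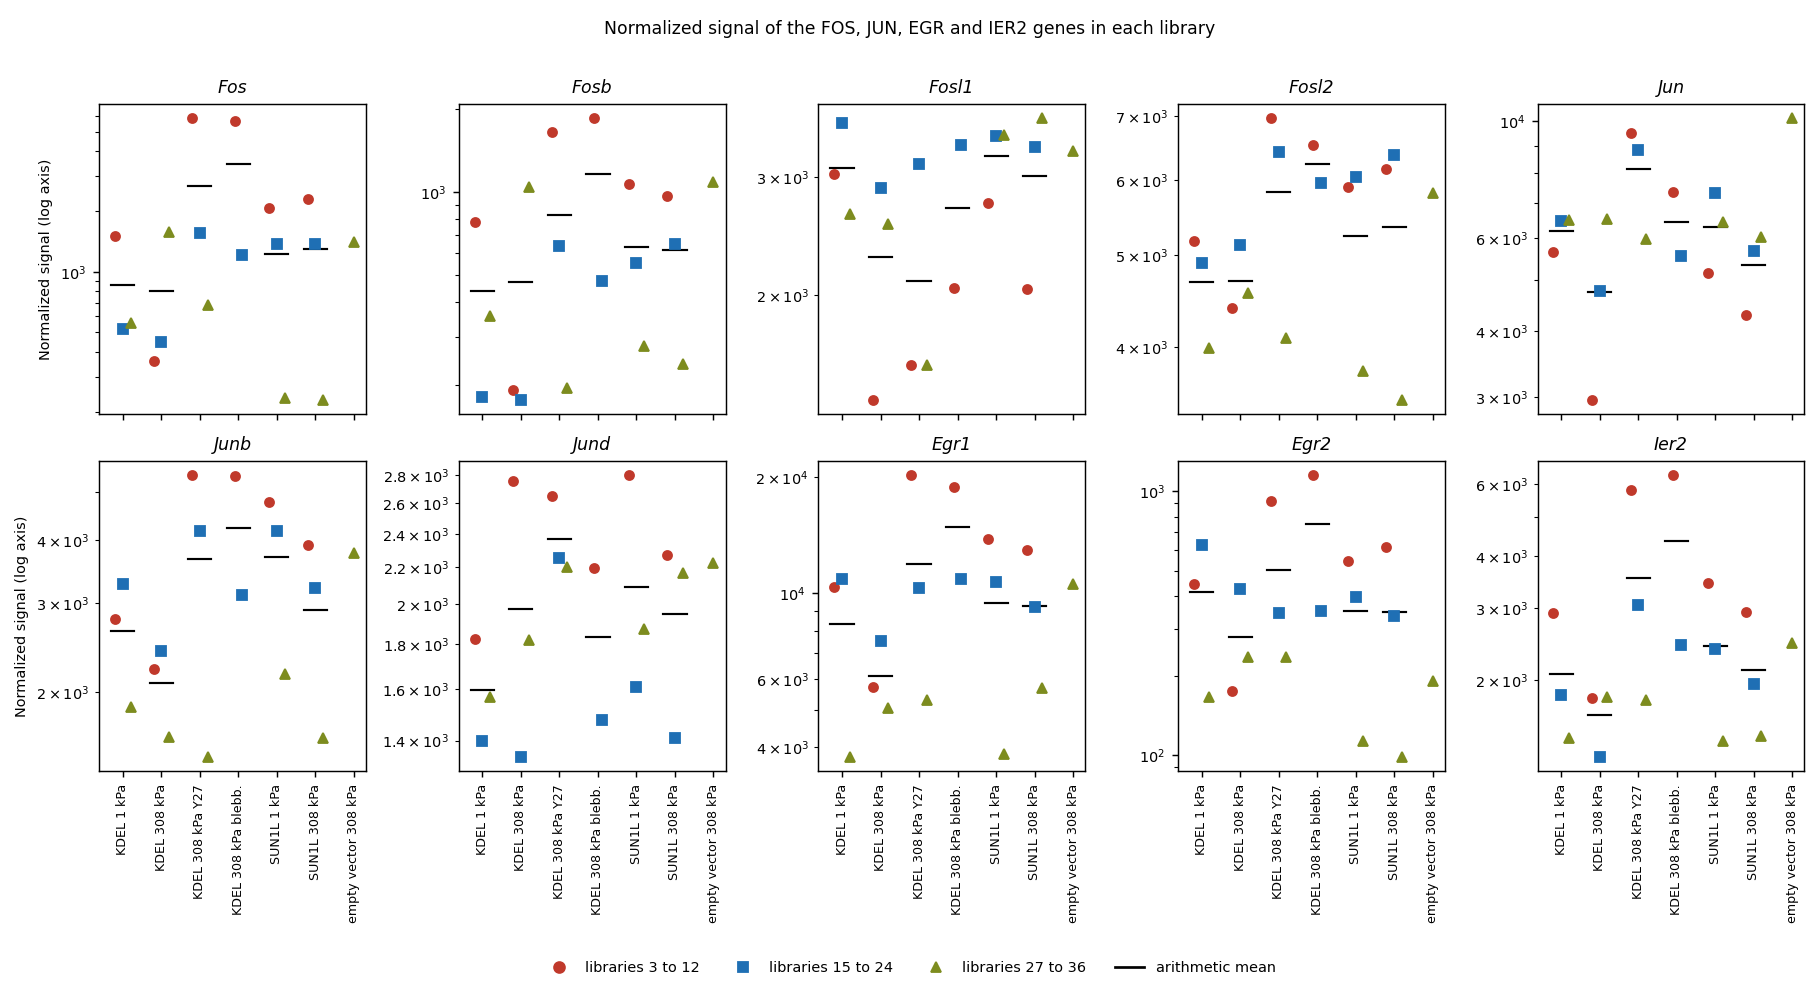
Normalized signal (log axis) of each gene in the 18 libraries by group, coloured by run of serial numbers, with the arithmetic mean of each group as a bar. Libraries of 1 group lie up to 10.1-fold apart for Fos and 6.25-fold apart for Egr2, both in SUN1L cells on 308 kPa, and libraries 27 to 36 are often the lowest.

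To compare abundance between genes the signal was divided by the length of the longest coding transcript. Per kilobase, the mean in untreated KDEL cells on 308 kPa (n = 3, SD) was highest for Egr1 (1970 ± 409). It was followed by Jun (1492 ± 562), Fosl1 (1335 ± 461), Junb (1154 ± 228) and Ier2 (1080 ± 195), and these ranges overlapped from each gene to the next. Fosl2 (801 ± 65.2), Jund (685 ± 250) and Fos (379 ± 324) came next, with Fos at 171 to 752 overlapping Jund at 466 to 957. Fosb (126 ± 133) and Egr2 (94.1 ± 44.1) were the least abundant, and their ranges overlapped.

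On the stiff gel, Fos was 361, 449 and 1586 in the untreated libraries 8, 20 and 32. It was 5834, 1560 and 687 with Y27 in libraries 12, 24 and 36, and 5679 and 1214 with blebbistatin in libraries 10 and 22. Library 12 and library 10 were the highest of all 18, but the untreated library 32 lay above both library 24 and library 22, so the groups overlapped. The log2 fold change was 1.53 ± 1.00 (SE) with Y27 (limma adjusted p = 0.854) and 2.04 ± 1.12 with blebbistatin (adjusted p = 1).

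Fosb, whose protein also pairs with JUN proteins, followed the same pattern. Its signal was 192, 177 and 1048 untreated, 1656, 638 and 196 with Y27, and 1850 and 476 with blebbistatin. Untreated library 32 again lay above library 24, and library 36 with Y27 lay just above the untreated libraries 8 and 20. The log2 fold changes were 0.84 ± 1.04 (SE) with Y27 and 1.51 ± 1.17 with blebbistatin (limma adjusted p = 0.872 and 1).

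Egr1, the most abundant of the 10 genes per length, was 5737, 7517 and 5063 untreated. It was 20198, 10324 and 5306 with Y27, and 18800 and 10909 with blebbistatin. Both blebbistatin libraries exceeded all untreated ones, while with Y27 library 36 fell within the untreated range. The log2 fold change was 0.78 ± 0.49 (SE) with Y27 and 1.25 ± 0.54 with blebbistatin (limma adjusted p = 0.854 and 1).

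Egr2 was 175, 426 and 236 untreated, 922, 347 and 234 with Y27, and 1150 and 350 with blebbistatin. Only libraries 12 and 10 lay above the untreated range. Its log2 fold changes of 0.69 ± 0.67 (SE) and 1.28 ± 0.75 did not pass (limma adjusted p = 0.854 and 1).

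Ier2 was 1812, 1302 and 1819 untreated. It was 5786, 3046 and 1790 with Y27 and 6296 and 2441 with blebbistatin, so that every treated library but 36 exceeded the untreated ones. The log2 fold changes were 0.96 ± 0.50 (SE) and 1.27 ± 0.56 (limma adjusted p = 0.841 and 1).

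Among the JUN genes, Jun was 2962, 4762 and 6546 untreated, 9506, 8840 and 5996 with Y27, and 7339 and 5549 with blebbistatin. Libraries 12 and 24 lay above the untreated range and library 36 within it. Jun was the one gene of the 10 with an unadjusted p under 0.05 with Y27, where 5.8% of all genes tested had one. Its log2 fold change was 0.82 ± 0.32 (SE), with an adjusted p of 0.827 from limma. With blebbistatin its log2 fold change was 0.50 ± 0.36 (adjusted p = 1).

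Junb was 2222, 2413 and 1623 untreated, 5389, 4174 and 1483 with Y27, and 5363 and 3117 with blebbistatin. Library 36 was here the lowest of all 18. The log2 fold change was 0.65 ± 0.50 (SE) with Y27 and 0.99 ± 0.55 with blebbistatin (limma adjusted p = 0.854 and 1). Jund, the JUN gene known for steady expression, gave log2 fold changes of 0.32 ± 0.28 and −0.07 ± 0.31 with a range of 1341 to 2753 untreated and 1477 to 2652 with either inhibitor.

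The FOS-related genes with milder induction differed less. Fosl1 was 1393, 2893 and 2551 untreated, 1573, 3144 and 1571 with Y27, and 2048 and 3349 with blebbistatin, with the groups overlapping. Fosl2 was 4393, 5122 and 4559 untreated, 6968, 6421 and 4091 with Y27, and 6528 and 5958 with blebbistatin. The log2 fold changes of Fosl1 were −0.13 ± 0.40 (SE) and 0.27 ± 0.44, and those of Fosl2 were 0.28 ± 0.20 and 0.41 ± 0.23, none passing (limma adjusted p of 0.854 or above).

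Over the 10 genes, 9 had a log2 fold change above 0 with Y27 and 9 with blebbistatin, against 52.3% and 51.2% of all genes tested. The median was 0.74 with Y27 and 1.12 with blebbistatin, and the median of all genes tested was 0.01 with Y27 and 0 to 2 decimals with blebbistatin. Both comparisons share the untreated libraries 8, 20 and 32, so they are not independent of each other. With blebbistatin 4 genes (Fosl2, Junb, Egr1 and Ier2) were higher without overlap of the groups, where 7.2% of all genes were, and 5 were at least 2-fold higher, where 1.19% were. With Y27 no gene of the 10 was higher without overlap (4.95% of all genes were) and only Fos was at least 2-fold higher (1.77%). No gene of the table passed in either comparison (0%). With blebbistatin none of the 10 had an unadjusted p under 0.05, where 3.04% of all genes had. Between the inhibitors 8 of the 10 genes had a higher mean log2 signal with blebbistatin, with a median difference of 0.37 and 0 calls. The median was −0.29 without library 10 and −0.12 without library 36. The share of all genes above 0 was 46.1%, and no gene of the 10 had an unadjusted p under 0.05 where 2.32% of all genes had.

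**Figure D2:**
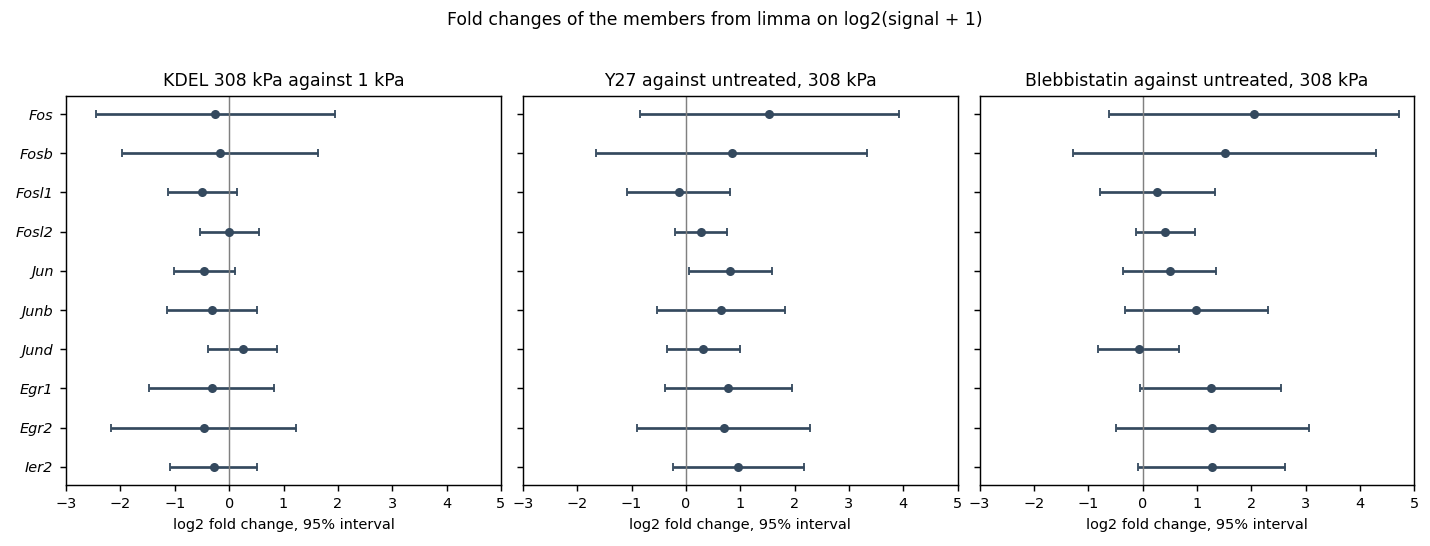
Log2 fold change of each gene from limma with its 95% interval, for rigidity in KDEL cells, Y27 and blebbistatin. The intervals include 0 for every gene except Jun with Y27, and the blebbistatin interval of Fos runs from −0.62 to 4.71.

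The inhibitor values depended on the run of serial numbers. Within libraries 3 to 12, Fos was 16.1-fold higher with Y27 and 15.7-fold higher with blebbistatin than in the untreated library, and within libraries 15 to 24 it was 3.47-fold and 2.70-fold higher. Within libraries 27 to 36 the ratio with Y27 was 0.433. Egr1 was 3.52-fold, 1.37-fold and 1.05-fold its untreated level with Y27 in the order of the runs, and Ier2 was 3.19-fold, 2.34-fold and 0.984-fold. In the first run 9 of the 10 genes were above the untreated library with Y27, in the next also 9, and in the last only 2 (Jund and Egr1). With blebbistatin 9 were above it in each of the runs that have such a library.

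These single-library differences rest on untreated libraries that differ among themselves. Library 8 had the low G2/M signal given above. The summed signal of the 24 G2/M genes was 17229 to 139762 in untreated KDEL cells on 308 kPa, against 98176 to 118697 with Y27 and 88946 to 121541 with blebbistatin. Without library 8 the median log2 fold change of the 10 genes was 0.55 with Y27 and 1.02 with blebbistatin. None of the 10 was called then, and 3 genes of the whole table were called with Y27. Without library 36 the Y27 median was 1.16. Of the 10 genes, 5 (Fosl2, Jun, Junb, Egr1 and Ier2) then had an unadjusted limma p under 0.05, none passing after adjustment. Such a p was found for 783 of the 16021 genes tested. Without library 12 the Y27 median was 0.26, and without library 10 the blebbistatin median was 0.56 with no gene of the 10 at least 2-fold higher.

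**Figure D3:**
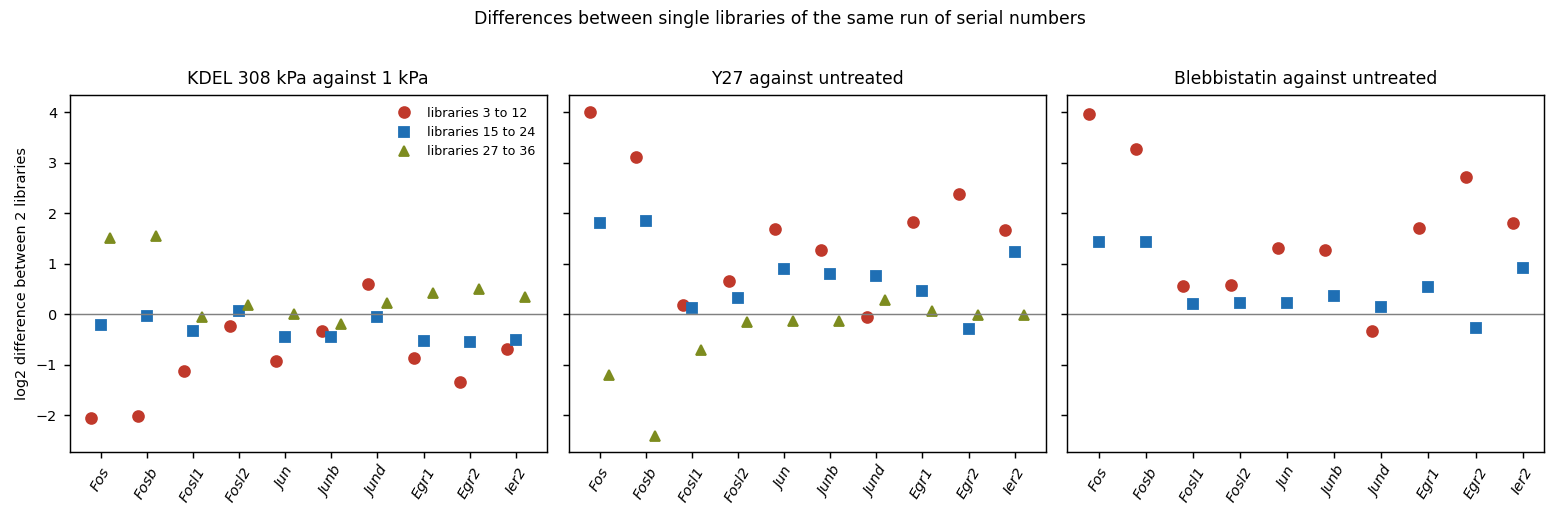
Log2 difference of each gene between 2 single libraries of the same run, for rigidity in KDEL cells, Y27 and blebbistatin, coloured by run. For Fos with Y27 the differences are 4.01, 1.80 and −1.21, and for rigidity they are −2.06, −0.22 and 1.51.

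Library 34, the empty vector library on 308 kPa whose inhibitor is not settled, had Fos, Jund and Egr2 signals within the range of the untreated libraries (1412, 2222 and 190). The rest of the 10 genes lay above that range, with Jun at 10142 and Egr1 at 10554. The share of all genes tested that did so was not computed. Placed in the blebbistatin group, it gave 10 genes above 0 with a median log2 fold change of 0.84, and placed in the Y27 group 10 genes above 0 with a median of 0.75, with 0 calls either way.

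The levels on soft and stiff gels overlapped in KDEL cells. Fos was 1507, 521 and 555 on 1 kPa (libraries 4, 16 and 28) against 361, 449 and 1586 on 308 kPa. Egr1 was 10404, 10880 and 3768 on 1 kPa against 5737, 7517 and 5063, and Jun was 5652, 6481 and 6492 against 2962, 4762 and 6546. The ranges of all 10 genes overlapped between the gels, where 2.13% of all genes tested were higher and 2.65% lower on 308 kPa without overlap.

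The log2 fold change of 308 kPa over 1 kPa was above 0 for 2 of the 10 genes (47.5% of all genes), Fosl2 (0.01 ± 0.24 SE) and Jund (0.25 ± 0.29). For the other 8 genes it ran from −0.17 (Fosb) to −0.50 (Fosl1 ± 0.29 SE), and the median of the 10 was −0.30 against −0.01 for all genes tested. All 95% intervals included 0, that of Fos spanning −2.46 to 1.95, and the adjusted p of limma was 1 for each gene. No gene of the 10 had an unadjusted p under 0.05, where 1.37% of all genes had, and none of the 16021 genes was called (0%). Within runs, 1 of 10 genes was higher on the stiff gel in libraries 3 to 12, 1 in libraries 15 to 24 and 8 in libraries 27 to 36. All 24 G2/M genes had a log2 fold change below 0 in the same comparison. Their mean log2 signal was 11.79, 11.60 and 11.94 on 1 kPa (libraries 4, 16 and 28). On 308 kPa it was 9.03, 11.52 and 12.11 (libraries 8, 20 and 32). Without libraries 3, 7 and 8 the median of the 10 genes was −0.16, as it was without library 8 alone. It was −0.05 without library 4 and −0.50 without library 28.

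In SUN1L cells Fos was 2091, 1376 and 233 on 1 kPa (libraries 3, 15 and 27) and 2316, 1375 and 229 on 308 kPa (libraries 7, 19 and 31). Egr1 was 13814, 10688 and 3837 on 1 kPa and 12913, 9231 and 5707 on 308 kPa. In both genes the libraries of a run lay closer to each other across the gels than to other libraries on the same gel. The median log2 fold change of the 10 genes for rigidity was −0.09, with 3 above 0 (47.3% of all genes) and 0 calls. This median changed sign with single libraries: it was 0.14 with 7 above 0 without library 3, 0.19 with 7 above 0 without library 31, −0.32 without library 7 and −0.48 with 0 above 0 without library 27. The interaction of construct and rigidity gave 0 calls among the 10 and among all genes.

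SUN1L and KDEL cells also overlapped. On 308 kPa all 10 genes had a log2 fold change above 0 (42.9% of all genes did), with a median of 0.36 and the largest values for Fosb (0.69 ± 0.81 SE), Egr1 (0.55 ± 0.52) and Fos (0.50 ± 1.00). On 1 kPa 9 of the 10 were above 0 (48.1% of all genes) with a median of 0.17, and Egr2 was at −0.31 ± 0.77. Single libraries moved both medians. On 308 kPa the median was 0.10 with 7 above 0 without library 7, 0.20 with 8 above 0 without library 8 and 0.67 without library 31, and without libraries 3, 7 and 8 it was 0.10 with 6 above 0. On 1 kPa it was 0.06 without library 3, 0.01 without library 15 and 0.00 without library 28, against 0.41 without library 4 and 0.47 without library 27. No gene of the 10 passed (limma adjusted p of 0.93 or above), where 14 genes of the table were called on 1 kPa (0.0874%) and 10 on 308 kPa (0.0624%), and none of the 10 had an unadjusted p under 0.05, where 4.54% of all genes had on 1 kPa and 2.53% on 308 kPa. Over both gels 29 genes were called (0.181%), none of them among the 10. Fos on 308 kPa was 6.40-fold higher in SUN1L than in KDEL cells within libraries 3 to 12 and 3.06-fold higher within libraries 15 to 24. Within libraries 27 to 36 the ratio was 0.145. Both SUN1L libraries of the first run, 3 and 7, had the low G2/M signal, as did the KDEL library 8 but not the KDEL library 4.

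The spread within groups was measured as the residual SD of log2 signal over the 17 libraries of the 6 groups. It was 1.45 for Fos, 1.25 for Fosb, 1.08 for Egr2 and 0.77 for Egr1, then 0.63 for Junb and for Ier2. The remaining genes were Fosl1 at 0.44, Jund at 0.36, Jun at 0.34 and Fosl2 at 0.33. For each gene the 1000 genes nearest to it in mean level had a median SD of 0.21 to 0.27. Of those neighbours, 99.7% had a smaller SD than Fos, 99.2% than Fosb, 98.7% than Egr2 and 97.8% than Egr1, down to 77.1% for Jun. The differences between runs held 80.3% of this within-group variation for Junb, 78.4% for Egr1, 41.5% for Fos and 14.9% for Jun, against a median of 46.4% over all genes tested.

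**Figure D4:**
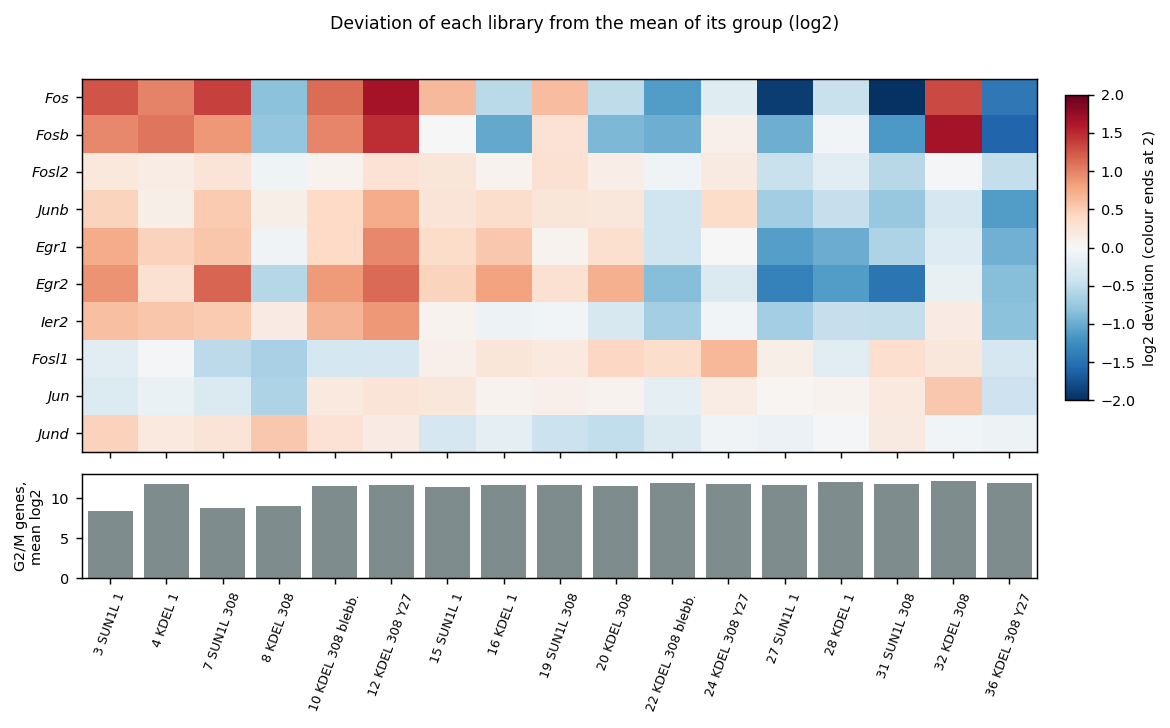
Log2 deviation of each gene (rows) from the mean of its group in 17 libraries (columns), red above and blue below, with the mean log2 signal of 24 G2/M genes as bars underneath. Libraries 27, 31 and 36 are low for Fos, Junb, Egr1 and Egr2, library 32 is high for Fos and Fosb but not for Junb or Egr1, and the bars of libraries 3, 7 and 8 are the lowest (8.45, 8.71 and 9.03).

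Most of the 10 genes deviated together. For Fos, Fosb, Fosl2, Junb, Egr1, Egr2 and Ier2, Pearson's r of the within-group deviations over 17 libraries was 0.58 to 0.93 in 21 pairs, with a median of 0.81. Egr1 with Egr2 (0.93), Fos with Fosb (0.93) and Junb with Egr1 (0.92) were the closest pairs. Fosl1, Jun and Jund stood outside: r was −0.67 between Fosl1 and Jund and −0.40 between Jun and Jund, and the 21 pairs of 1 gene from each set ran from −0.43 to 0.56. The division into 7 and 3 genes was made after the values were seen, all pairs share the same libraries and their scaling, and the values are given as a description.

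**Figure D5:**
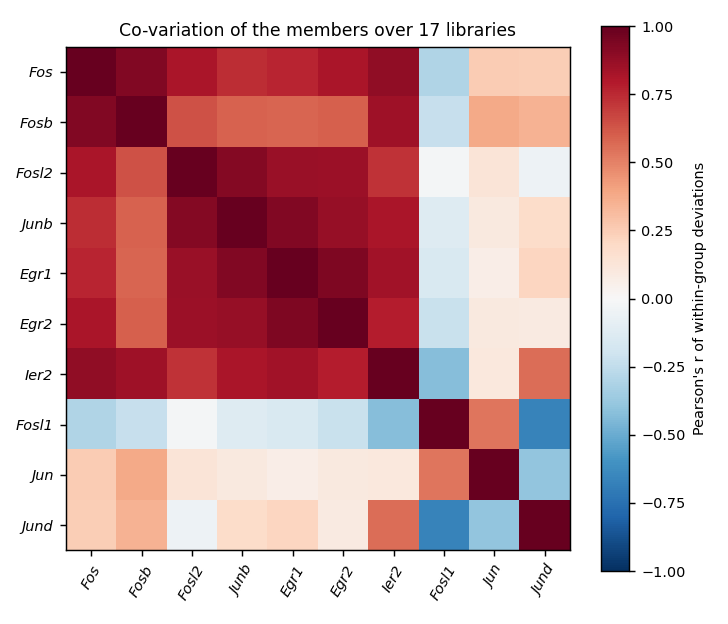
Pearson's r between the within-group log2 deviations of each pair of the 10 genes over 17 libraries, from −1 (blue) to 1 (red). The block of 7 genes from Fos to Ier2 holds values of 0.58 to 0.93, and Fosl1, Jun and Jund run from −0.67 to 0.56 with one another and with the block.

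The deviations of Jun and Fosl1 ran with those of the G2/M genes (r = 0.70 and 0.66 over 17 libraries) and those of Jund against them (r = −0.71), whereas the other 7 genes lay between −0.20 and −0.50. With the mean of the 11 heat shock genes r was 0.75 for Jun, 0.58 for Fosl1 and −0.65 for Jund, and between −0.37 and 0.04 for the other 7. The 3 libraries with low G2/M signal enter these values, and their part was not tested.

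The 3 genes whose log2 signal followed each member most closely over all 18 libraries were found by Pearson's r among genes above the median level, as a description. For Fos these were Zfp36, whose protein binds AU-rich elements and speeds messenger RNA decay (r = 0.91), and Nfkbiz, a gene of the IκB family (0.89), beside Ier2 (0.91). Fosb was followed by Fos (0.91), Ier2 (0.82) and Zfp36 (0.81), and Ier2 by Fos (0.91), the clock gene Per1 (0.90) and Zfp36 (0.88). Egr2 was followed by its relative Egr3 (0.95), the glutamate transporter Slc1a3 (0.93) and the complement gene C1s1 (0.89). Egr1 was followed by Junb (0.91), Fosl2 (0.88) and Egr3 (0.88), and Junb by Egr1 (0.91), Fosl2 (0.90) and the cyclin Ccnl1 (0.89). For Fosl2 they were Ccnl1 (0.92), Zfp36 (0.90) and Junb (0.90).

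The 3 genes outside that block had other neighbours. Fosl1 was followed by Hbegf, an EGF receptor ligand (0.91), the forkhead factor Foxc2 (0.89) and the clock gene Nr1d1 (0.88). Jun was followed by the nuclear receptor Nr4a1 (0.86), Slc27a4 (0.85) and Evc2 (0.84). Jund was followed by the amino acid transporter subunit Slc3a2 (0.89), Pck2 (0.89) and the glutamine transporter Slc1a5 (0.88). Slc3a2 was 5829 to 11696 over the libraries and highest in library 8, the untreated library with low G2/M signal.

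Other genes of the immediate-early response were grouped by role, and none of them passed the test in any comparison. The genes named from here on were chosen for large changes without overlap in rigidity in KDEL cells, Y27 or blebbistatin. Their separation was therefore fixed by the choice. Of 21 tested immediate-early transcription factors besides the 10, 17 had a log2 fold change above 0 with Y27 (median 0.62) and 18 with blebbistatin (median 0.55). Without overlap, 4 of them were higher with Y27 and 12 with blebbistatin, where 4.95% and 7.2% of all genes tested were. Nr4a1 was 455, 1616 and 1570 untreated in libraries 8, 20 and 32 and 3406, 3132 and 2049 with Y27, every treated library above every untreated one (log2 fold change 1.41 ± 0.55 SE, limma adjusted p = 0.827). With blebbistatin Nr4a1 was 3771 and 1932 (1.36 ± 0.61, adjusted p = 1). Klf10, a TGF-β-induced repressor, was 1423, 2064 and 1831 untreated and 2436, 3861 and 2325 with Y27 (0.67 ± 0.23, adjusted p = 0.803). Csrnp1 was 179, 478 and 556 untreated against 908 and 856 with blebbistatin (1.28 ± 0.50, adjusted p = 1).

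On 1 kPa Csrnp1 was 628, 647 and 584, above all 3 libraries on 308 kPa (−0.77 ± 0.49 for stiff over soft, limma adjusted p = 1). Id3, an inhibitor of basic helix-loop-helix factors, was 7456, 8734 and 7807 on 1 kPa and 5251, 6570 and 5246 on 308 kPa (−0.50 ± 0.15, adjusted p = 1). The median of the 21 factors for rigidity was −0.33 with 4 above 0, and 5 of them were lower on 308 kPa without overlap, where 47.5% of all genes were above 0 and 2.65% lower without overlap.

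Feedback inhibitors and messenger RNA decay factors, 25 genes tested, had a median of 0.22 with Y27 and 0.47 with blebbistatin. Dusp1, a phosphatase that switches off MAP kinases, was 4995, 5946 and 8033 untreated and 14218, 11968 and 8550 with Y27 (log2 fold change 0.87 ± 0.25 SE, limma adjusted p = 0.793). Gadd45g, a stress sensor, was 742, 987 and 2166 untreated, 2408, 2649 and 2289 with Y27 and 2512 and 2239 with blebbistatin, without overlap in either case. Its log2 fold changes were 1.07 ± 0.37 and 1.02 ± 0.41 (adjusted p = 0.803 and 1). Zfp36 was 792, 830 and 1152 untreated and 3879 and 1691 with blebbistatin (1.49 ± 0.60, adjusted p = 1). For rigidity the median of these 25 genes was −0.21.

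Of 22 immediate-early signalling and secreted genes, 13 were above 0 with Y27 (median 0.30), 20 with blebbistatin (median 0.44) and 2 for rigidity (median −0.47). Sik1, a salt-inducible kinase, was 757, 883 and 655 untreated and 1439, 1465 and 1170 with Y27 (log2 fold change 0.83 ± 0.16 SE, limma adjusted p = 0.741). The chemokine Cxcl1 was 87.2, 397 and 488 untreated and 795 and 914 with blebbistatin (1.73 ± 0.87, adjusted p = 1). Ctgf, a matricellular protein, was 15892, 14559 and 17007 on 1 kPa and 4850, 14515 and 14494 on 308 kPa, where library 8 stood far below the others (−0.65 ± 0.49, adjusted p = 1).

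The kinases and SRF, TCF and CREB factors upstream of the 10 genes, 26 tested, had medians of −0.06 with Y27, 0.08 with blebbistatin and −0.03 for rigidity. Srf itself had a log2 fold change of 0.53 ± 0.21 (SE) with blebbistatin and −0.35 ± 0.19 for rigidity, and the kinase Rps6ka5 was at 0.57 ± 0.29 with blebbistatin (limma adjusted p = 1 for each). With Y27 the kinases Rps6ka2 (−0.61 ± 0.17) and Map2k1 (−0.25 ± 0.07) were lower in every treated library (adjusted p = 0.793 for both). Of 15 tested ATF, BATF, JDP, MAF and CREB genes, Atf6 was at −0.38 ± 0.15 with Y27 and 0.30 ± 0.23 for rigidity. Atf1 was at −0.19 ± 0.12 for rigidity. Mafk (0.66 ± 0.23) and Creb1 (0.18 ± 0.13) were higher without overlap with blebbistatin, and none of these genes passed.

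Genes known as targets of AP-1 or EGR factors were counted in the same way. Of 15 tested, 4 had a log2 fold change above 0 with Y27 (median −0.28), 7 with blebbistatin (median −0.10) and 5 for rigidity (median −0.12), with 0 calls. Tgfb1 was 332, 738 and 432 untreated and 297, 319 and 323 with Y27 (−0.60 ± 0.28 SE, limma adjusted p = 0.827). F3, the tissue factor gene, was 1013, 2161 and 1832 untreated and 4479 and 2731 with blebbistatin (1.14 ± 0.53, adjusted p = 1). Mmp13 and Icam1 lay near the floor of the table, at most 6.13 and 23.6 in any library, where 1 read pair is worth 1.70 to 2.49 signal units. The log2 fold changes of Mmp13 with Y27 (−0.60 ± 0.32) and of Icam1 with blebbistatin (−1.40 ± 0.83) rest on few read pairs.

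Heat shock genes had medians of 0.01 with Y27, 0.05 with blebbistatin and −0.02 for rigidity over 11 genes, with 0 calls. Of 9 fibroblast markers, 8 were above 0 with Y27 and 9 with blebbistatin. Col1a1 and Col1a2, the chains of type I collagen, had log2 fold changes of 0.98 ± 0.29 (SE) and 0.84 ± 0.28 with Y27, and Col1a2 was at 0.48 ± 0.31 with blebbistatin (limma adjusted p of 0.793 or above). All 24 G2/M genes were above 0 with each inhibitor, with medians of 0.86 and 0.77 and 0 calls. Markers of epithelial, endothelial, leukocyte and muscle cells gave 0 calls in these comparisons.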

How the data were processed

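Polyadenylated RNA was sequenced as paired-end reads. The authors aligned the reads with TopHat, and filtering, quantification and TMM normalization followed in AvadisNGS. The deposited table holds 1 linear signal value per gene and library, with 1 as the lowest value and no division by gene length. The methods name mm9, but gene positions in the table are those of GRCm38. Between 40.3% and 43.7% of low values (under 20 read pairs) were whole multiples of 1 read pair (tolerance 0.01), so no count test was used.

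From the deposited signal, log2(value + 1) was tested two-sided with limma 3.58.1 in R 4.3.3 (trended prior variance, 1 mean per group) over the 16021 genes that exceeded the lowest value in 3 or more libraries. Rigidity and construct fits used 12 libraries and inhibitor fits 8. A call needed a Benjamini-Hochberg adjusted p under 0.05 and a 2-fold difference. An exact permutation test of 3 libraries against 3, or of 3 against 2, cannot go below 0.1. The procedure was tested on simulated data. The fold changes are on the log2(value + 1) scale, which understates the change of low genes.

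All 10 members are named. Of the other lists, a gene is named if called, or if among the 2 per list with the largest change whose groups do not overlap in rigidity in KDEL cells, Y27 or blebbistatin. One gene that this rule names is not reported here. Members and lists were chosen with earlier results of these data known. The labels number no replicates, so libraries were not paired. Library 34 was read from the column numbered 35, matched by its heading of an empty vector and Y27. Promoter windows came from RefSeq, and coding transcript lengths from GENCODE vM1. Alternatives covered the filter, pseudocount, normalization, variance model, array weights, a block on runs, library 34 and left-out libraries.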

Additional observations from a re-analysis of the deposited data

Results flagged for a closer look

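Library 34 (empty vector, 308 kPa, inhibitor label in conflict) was in no comparison. In it 7 of the 10 genes lay above the highest of the 3 untreated KDEL libraries on 308 kPa. The share of all genes tested that did so was not computed, so this count has no background beside it. Library 34 had the highest Jun signal of all 18 libraries (10142). It also exceeded the untreated libraries for Egr1 (10554), Fosl2 (5812), Junb (3769), Fosl1 (3281), Ier2 (2471) and Fosb (1087). It has no replicate, and its construct differs from that of the untreated libraries, so construct and inhibitor cannot be told apart. No group of the design has 4 or more libraries, so no group was searched for a library far from the rest.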

How the results depend on the processing

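The count of the 10 genes called was 0 in every comparison and under each alternative that gave a value. For single genes, 2319 log2 fold changes kept their direction and 221 uncalled ones changed sign, most often without the 3 libraries of low G2/M signal (28) and without libraries 3 to 12 (24), both chosen after seeing the data. A replicate block was also set on the runs of library numbers, which the labels do not give as a pairing. The count of calls among the 10 was then also 0, and the blebbistatin median was 0.79 in place of 1.12. Genes of the 10 with an unadjusted limma p under 0.05 numbered 2 for rigidity in KDEL cells, 1 in SUN1L cells and 3 over both constructs. Of the 16021 genes tested, 861, 884 and 1394 had one in these comparisons. For SUN1L they numbered 2 of the 10 on 1 kPa, 1 on 308 kPa and 1 over both gels. Of all genes tested, 2259, 949 and 2513 had one there. With Y27 it was 1 of the 10 and 1362 of all genes tested, and in the other comparisons 0 of the 10. Without libraries 3 to 12 the medians were 0.28 with Y27, 0.30 with blebbistatin and −0.04 for rigidity in KDEL cells. Without libraries 27 to 36 they were 1.09 with Y27 and −0.69 for rigidity in KDEL cells. Where leaving out libraries left 1 in a group, it was assumed to vary like the others. Leaving out each library in turn gave 0 calls among the 10 genes each time. Over all genes it gave 3 calls with Y27 without library 8, 8 to 15 for SUN1L on 1 kPa, 9 to 10 on 308 kPa and 18 to 27 over both. The precision was limited by the 2 or 3 libraries per group: the 95% interval of Fos with Y27 ran from −0.85 to 3.92 log2.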
